A study of Mus musculus with 7 samples.

Results

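Gm26870, Snhg11, Meox1 and Rit2 were the 4 genes described, out of 27998 genes listed by symbol in the count table. They were chosen by the ratio of their UMIs (unique molecular identifiers, 1 for each captured RNA molecule) in ectopic oligodendrocyte precursor cells (eOPCs) to those in control precursors, which was among the highest of all genes, so their values in that contrast are a description, with no test. The data were 3 libraries of oligodendrocyte lineage cells (OLCs) sorted by reporter fluorescence from the cortex of adult mice at P90 (motor and cingulate cortex by the labels, neocortex by the study's methods), on a mixed C57BL/6-B6CBA background and of both sexes, and profiled by droplet-based single-cell RNA sequencing. Every mouse carried Emx1-Cre, which recombines in cells of the dorsal forebrain, and a Sox10-GFP-tdTom reporter, in which OLCs are GFP+ until Cre switches them to tdTom+. Control dOLCs were the tdTom+ cells and control vOLCs the GFP+ cells of Emx1-Cre:Sox10-GFP-TdTom mice, while ectopic vOLCs were the GFP+ cells of mice that also carried Sox10-GFP-DTA, whose diphtheria toxin A is switched on by Cre in OLCs of dorsal origin and kills them. Cells of 4 control mice and of 2 ablated mice, by the study's methods, were pooled without a mark of the animal, so that each condition was 1 library and conditions could not be tested against each other. The Sox10-DTA allele was present in the ectopic library only, and ablation, mice and library cannot be told apart.

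OPCs are the dividing, Pdgfra-expressing precursors of the lineage. They pass through committed precursors (COP), newly formed (NFOL) and myelin-forming oligodendrocytes (MFOL) to mature oligodendrocytes (MOL), losing precursor genes as they gain myelin genes. None of the 4 genes is a classical marker of this lineage. Snhg11 is a long noncoding RNA that hosts small nucleolar RNAs and is known mainly from neurons. Gm26870 is a predicted long intergenic noncoding RNA. Meox1 is a homeobox transcription factor of somite development. Rit2 is a small GTPase of the Ras family that binds calmodulin and is known mainly from neurons.

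After the authors' quality control, the control dOLC library had 5804 cells, the control vOLC library 925 and the ectopic library 2562, which held 23078181, 4846391 and 14293675 UMIs, in 11 clusters. The OPC cluster, with cycling cells apart, held 853 dOPCs, 121 vOPCs and 330 eOPCs, with medians of 2795, 3454 and 3421.5 UMIs in a cell. The 6 OPC markers (Pdgfra, Cspg4, Ptprz1, Vcan, C1ql1 and Lhfpl3) summed to 9182, 11372 and 9475 counts per 1000000 UMIs (CPM) in these cells, against 134, 68.5 and 62.2 CPM in all MOL clusters of the same libraries. The 9 neuronal genes ranged from 111 CPM in eOPCs to 132 CPM in vOPCs, with Rbfox3, Nefl and Slc17a7 at 0 UMIs in both ventral libraries, and the 5 astrocyte genes from 630 to 692 CPM. The 5 microglial genes had 0 UMIs in eOPCs, the 4 endothelial genes 4 UMIs, all of 1 gene (2.67 CPM in dOPCs, 20.3 in vOPCs and 3.33 in eOPCs), and the 6 mural and fibroblast genes 1 UMI. The 7 mature oligodendrocyte genes were at 4207 CPM in dOPCs, 2120 in vOPCs and 2052 in eOPCs. A barcode sequence occurred in more than 1 library 47 times, 39 times among kept cells, and 4 eOPCs carried such a barcode.

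The sequence of Gm26870 is shown first because of its repeats, which bear on what a count of this gene can mean. On GRCm38 the gene lies on the minus strand at chr9:3000282-3038313, and GENCODE lists 3 transcripts of 1170, 1143 and 1170 bases. Each transcript matched itself best when shifted by 234 bases, with 81.5%, 95.9% and 78.3% of positions identical. The second transcript, Gm26870-202, holds 4 whole copies of this unit in tandem, which differ at 21 positions, marked by capitals in the lines that follow (5′ to 3′ along the transcript, from GENCODE).
copy 1, transcript positions 1 to 234: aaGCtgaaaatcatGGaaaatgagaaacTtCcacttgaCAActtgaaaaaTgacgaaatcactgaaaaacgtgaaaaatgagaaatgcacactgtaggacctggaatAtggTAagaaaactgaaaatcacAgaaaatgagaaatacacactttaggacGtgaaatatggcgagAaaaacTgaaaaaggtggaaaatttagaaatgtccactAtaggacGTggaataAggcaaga
copy 2, transcript positions 235 to 468: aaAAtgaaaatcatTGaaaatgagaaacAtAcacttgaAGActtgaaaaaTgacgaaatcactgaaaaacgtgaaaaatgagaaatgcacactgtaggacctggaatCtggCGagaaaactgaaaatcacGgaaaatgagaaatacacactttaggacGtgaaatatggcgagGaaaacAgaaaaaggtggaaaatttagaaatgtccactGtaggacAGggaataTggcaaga
copy 3, transcript positions 469 to 702: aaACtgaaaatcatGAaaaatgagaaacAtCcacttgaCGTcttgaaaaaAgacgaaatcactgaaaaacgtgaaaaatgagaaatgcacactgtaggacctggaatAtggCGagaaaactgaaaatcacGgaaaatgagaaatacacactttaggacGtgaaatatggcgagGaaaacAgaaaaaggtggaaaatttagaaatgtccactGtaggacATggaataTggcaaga
copy 4, transcript positions 703 to 936: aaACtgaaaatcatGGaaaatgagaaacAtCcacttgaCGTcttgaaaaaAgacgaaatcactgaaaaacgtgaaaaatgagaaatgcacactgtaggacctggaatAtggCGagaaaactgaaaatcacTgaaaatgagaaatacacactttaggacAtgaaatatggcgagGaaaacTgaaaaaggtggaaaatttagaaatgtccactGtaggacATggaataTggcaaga
Copies 1, 2 and 3 were 94.4%, 95.3% and 98.3% identical to copy 4. The unit is rich in A and T, which made up 64.4% of the transcript, with no run of A longer than 6 bases. Tandem repeats of this unit length are known at the pericentromeres of mouse chromosomes as the major satellite, and Gm26870 is annotated at the very start of the assembled part of chromosome 9. No satellite sequence was among the references used here, so that a match to it was not tested, and RNA from like repeats elsewhere in the genome cannot be told apart from RNA of Gm26870.

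Other annotated genes hold the same repeat. Stretches of at least 31 bases were shared with 12 other genes of the count table, all on the opposite strand of the transcript, and 11 of them shared stretches of at least 98 bases. Together these 12 genes had 0 UMIs in dOPCs, 0 in vOPCs and 20 in eOPCs, where Gm10800 had 10, Gm21738 4, Gm10719 3, Gm10717 2 and Gm10801 1. The other 7 had 0 UMIs in OPCs of every library. Counts of Gm26870 and of these genes are uncertain to the extent that the authors' counting could split reads among near-identical copies.

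Gm26870 had 11 UMIs in dOPCs, 2 in vOPCs and 1624 in eOPCs, or 4.19 CPM (95% interval 2.09 to 7.50), 5.07 (0.61 to 18.3) and 1351 (1286 to 1418). Its level in eOPCs lay close to that of Pdgfra in the same cells, 1363 CPM, although levels of different genes are not corrected for length here. The log2 ratio of eOPCs was 8.33 (7.49 to 9.34) to dOPCs and 8.06 (6.20 to 11.11) to vOPCs, while vOPCs differed from dOPCs by 0.27 (−2.94 to 2.47). Intervals here are exact Poisson intervals for CPM, Clopper-Pearson intervals for shares and conditional exact binomial intervals for ratios, and all describe the error of counting alone, without any spread of mice or libraries.

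A UMI of Gm26870 was found in 281 of 330 eOPCs (85.2%, 80.8 to 88.8), 9 of 853 dOPCs (1.06%) and 1 of 121 vOPCs (0.826%). After thinning every cell to 1000 UMIs, these were 60.3%, 0.586% and 0 of 121 cells, which allows up to 2.48%. None of the sorted cell types can be named as lacking these genes. Within the ectopic library, 72.7% of cycling OPCs, 22.7% of COP/NFOL/MFOLa cells and 2.09% of mature oligodendrocytes had a UMI, at median depths of 4574, 6571.5 and 5649.5.

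Snhg11 was the second gene, with 22 UMIs in dOPCs, 3 in vOPCs and 182 in eOPCs, or 8.38 CPM (5.25 to 12.7), 7.60 (1.57 to 22.2) and 151 (130 to 175). The log2 ratio of eOPCs was 4.18 (3.53 to 4.88) to dOPCs and 4.32 (2.75 to 6.61) to vOPCs, and the controls differed by −0.14 (−2.52 to 1.59). It had a UMI in 36.7% of eOPCs (31.5 to 42.1), 1.99% of dOPCs and 2.48% of vOPCs. Thinned to 1000 UMIs per cell, these shares were 13.0%, 0.703% and 0%. Snhg11 lies on the plus strand at chr2:158375638-158386145 (GRCm38).

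Meox1, at chr11:101877510-101894374 on the minus strand, had 21, 4 and 59 UMIs, or 8.00 CPM in dOPCs (4.95 to 12.2), 10.1 in vOPCs (2.76 to 25.9) and 49.1 in eOPCs (37.4 to 63.3). Its log2 ratio was 2.62 (1.88 to 3.41) to dOPCs and 2.28 (0.84 to 4.20) to vOPCs. In the thinned cells these were 4.18 (2.06 to 7.36) and 1.36 (−0.76 to 4.54), from 14 UMIs in eOPCs and 2 in each control, so that the ratio to vOPCs was no longer beyond counting error. Cells with a UMI made up 2.23%, 3.31% and 13.0% of OPCs. In MOL of the same libraries these were 0.0842%, 0 of 780 cells, which allows up to 0.385%, and 0.417%, at median depths of 3617.5, 5279.5 and 5649.5 UMIs, and the part of free RNA in the control OPCs was not tested.

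Rit2, at chr18:30973489-31317290 on the minus strand, was the highest of the 4 genes in control OPCs and differed least. It had 37 UMIs in dOPCs, 8 in vOPCs and 53 in eOPCs, or 14.1 CPM (9.92 to 19.4), 20.3 (8.75 to 39.9) and 44.1 (33.0 to 57.7). Its log2 ratio was 1.65 (1.01 to 2.29) to dOPCs and 1.12 (0.04 to 2.41) to vOPCs, an interval that reached nearly to 0. In the thinned cells the ratio to vOPCs was 0.43 (−1.49 to 2.91). A UMI was found in 4.10%, 6.61% and 12.7% of OPCs.

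A filter asked for 50 or more UMIs over both libraries of a contrast and detection in 10% or more of the cells of either. All 4 passed it in both contrasts of eOPCs, where they were at least 2-fold higher, as were 34 of the 6110 genes past the filter against dOPCs (0.556%) and 303 of 5721 against vOPCs (5.3%). Both at once held for 14 of 5667 genes (0.247%). Nothing is read from these counts, since the same contrast chose the genes. Between the controls none of the 4 passed the filter, and 2.39% of the 5863 genes that did were at least 2-fold higher in vOPCs. Among 2572 genes higher in eOPCs than in both controls, Gm26870, Snhg11, Meox1 and Rit2 took ranks 1, 2, 4 and 5 by the ratio to dOPCs. The tubulin gene Tubb3 took rank 3 and was not among the genes chosen. Just below Rit2 (1.65) were Rpa3 (1.46) and Polr2f (1.41). The median log2 ratio of all genes past the filter was 0.08 against dOPCs and 0.04 against vOPCs.

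**Figure D1:**
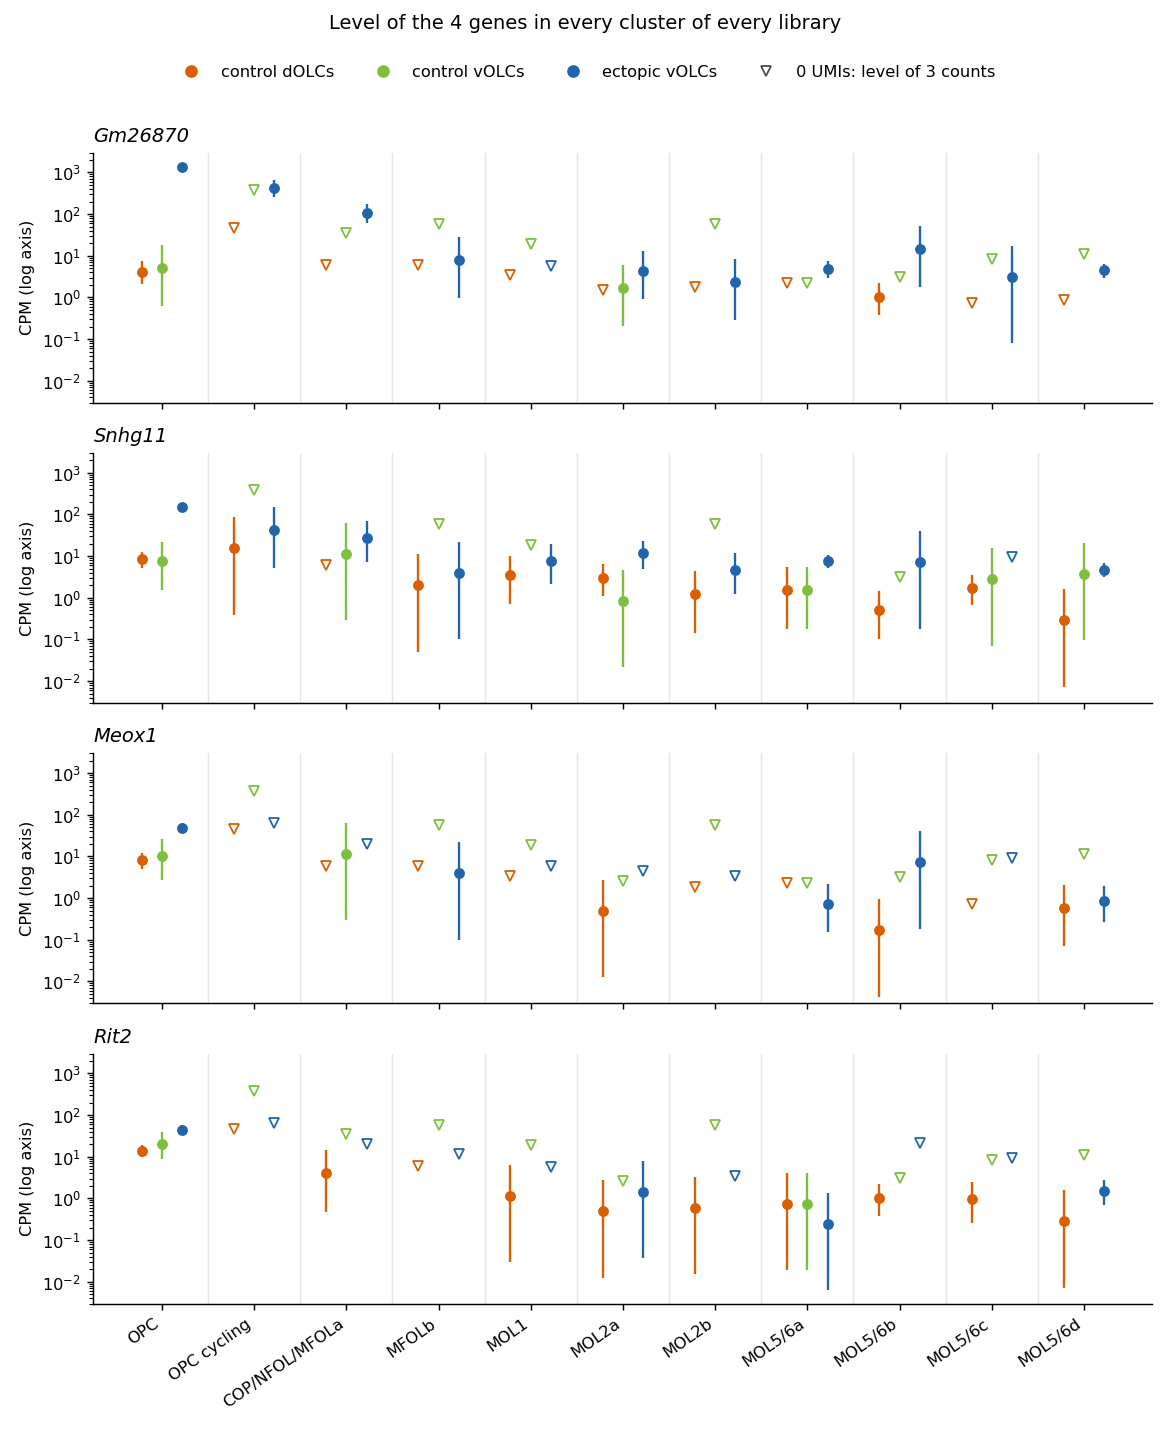
CPM of the 4 genes (log axis) in each of the 11 clusters of the 3 libraries, with points for levels, bars for exact 95% Poisson intervals (counting error only) and open triangles for the level of 3 counts where a cluster had 0 UMIs. The ectopic OPC point stands far above both controls for Gm26870 (1351 against 4.19 and 5.07 CPM), and its excess shrinks from Snhg11 to Meox1 and Rit2.

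Gm26870 was spread over most eOPCs rather than held by a few. Of the 330 cells, 49 had 0 UMIs, 44 had 1, 35 had 2 and 202 had 3 or more, with 132 at 5 or more and 43 at 10 or more. The median was 4 UMIs per cell, the quartiles were 1 and 7, and the highest cell had 33. The 4 cells with the most UMIs held 6.65% of the total. In the controls no cell had more than 2.

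The other 3 genes were sparse even in eOPCs. Snhg11 had 1 UMI in 79 cells, 2 in 28 and 3 or more in 14, with a highest value of 4. Meox1 had 1 UMI in 34 cells, 2 in 4 and 3 or more in 5, and Rit2 had 1 UMI in 33, 2 in 7 and 3 or more in 2. For these genes most detected cells rested on a single molecule, so that a cell without a UMI cannot be read as a cell without the RNA.

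The share of eOPCs with a gene moved with depth. Split by UMIs per cell into 3 bins of 110 cells, the share with Gm26870 went from 78.2% in the shallowest to 83.6% and 93.6% in the deepest, while its level was 1408, 1467 and 1245 CPM. Snhg11 did not follow depth in the same way, at 26.4%, 48.2% and 35.5% of cells and 156, 216 and 106 CPM. The share with Meox1 was 5.45%, 12.7% and 20.9%, at 26.1, 45.4 and 62.6 CPM. The share with Rit2 was 5.45%, 9.09% and 23.6%, at 22.3, 32.0 and 62.6 CPM. For Meox1 and Rit2 the level per UMI, and not the share alone, was thus higher in deeper cells.

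The 49 eOPCs without Gm26870 were still OPCs by their markers. Pdgfra, the PDGF receptor that defines OPCs, had a UMI in 46 of these 49 cells (93.9%) and in 279 of the 281 with Gm26870 (99.3%), at median depths of 2950 and 3522 UMIs. The OPC markers summed to 8652 CPM without and 9592 CPM with Gm26870, and mature oligodendrocyte markers to 2099 and 2045 CPM. Neuronal markers were at 66.9 CPM without and 118 CPM with it. They had 134 UMIs in all eOPCs together, so that the value of the 49 cells rests on few UMIs and has no interval here. Their part in the result was not tested.

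Which eOPCs carried the genes together was read from cells with a UMI of each. At least 1 of the 4 genes was found in 305 eOPCs (92.4%), against 76 dOPCs (8.91%) and 15 vOPCs (12.4%). At least 2 were found in 152 eOPCs (46.1%), 4 dOPCs and 1 vOPC, and after thinning in 40 eOPCs. Exactly 1 gene was found in 153 eOPCs, 2 in 124, 3 in 26 and all 4 in 2. Median depth was 2399 UMIs in the 25 cells with no gene, 3096 with 1 gene, 3698.5 with 2, 5273 with 3 and 4755 in the 2 cells with all 4.

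Gm26870 alone was the commonest state, in 133 eOPCs. Gm26870 with Snhg11 followed in 85 cells, Gm26870 with Meox1 in 18, Gm26870 with Rit2 in 17 and Gm26870 with both Snhg11 and Meox1 in 12. Snhg11 without any other of these genes was seen in 11 cells, Rit2 in 6 and Meox1 in 3.

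**Figure D2:**
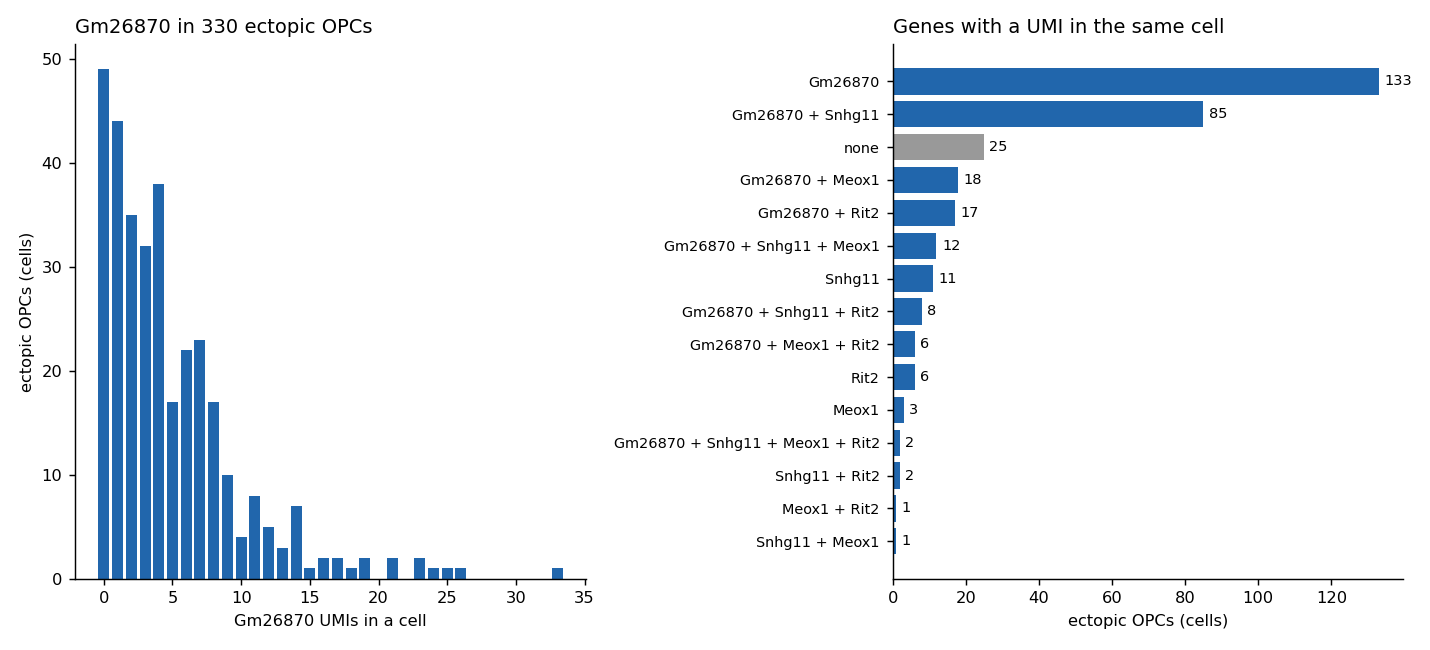
Left, number of ectopic OPCs by their count of Gm26870 UMIs. Right, number of ectopic OPCs by the set of the 4 genes with a UMI in the cell (grey, none): Gm26870 alone (133 cells) and Gm26870 with Snhg11 (85 cells) are the largest sets, and 25 of 330 cells carried none.

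Pairs of genes met in about as many eOPCs as the product of their shares would give. Gm26870 and Snhg11 were found together in 107 cells, where the product of shares gives 103, and Snhg11 was seen in 38.1% of cells with Gm26870 and 28.6% of cells without. Gm26870 and Meox1 met in 38 cells against 36.6, and Gm26870 and Rit2 in 33 against 35.8. Snhg11 met Meox1 in 15 cells against 15.8 and Rit2 in 12 against 15.4.

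Meox1 and Rit2 met more often than the product of shares, in 9 cells against 5.47. These 9 cells had a median of 5640 UMIs, and after thinning the pair was left in 1 cell against 0.433. In dOPCs, none of the 9 cells with Gm26870 had a UMI of Snhg11, Meox1 or Rit2, where the products of shares give 0.179 to 0.369 cells, too few for a 0 to be read. These counts describe cells of 1 library, which are not replicates.

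Cells outside the OPC cluster were not used in the choice of the genes, but come from the same libraries. The 11 cycling eOPCs had 20 UMIs of Gm26870, or 425 CPM (259 to 656), in 8 cells. The 17 cycling dOPCs and the 3 cycling vOPCs had 0, so that the level was at least 9.07-fold higher than in dOPCs and at least 1.12-fold higher than in vOPCs, with 0 replaced by 3 counts. Snhg11 had 2 UMIs in these 11 cells, and Meox1 and Rit2 had 0. The Gm26870 level in eOPCs outside the cycle was 3.18 times (2.05 to 5.22) that of cycling eOPCs.

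In the COP/NFOL/MFOLa cluster, the first stage after the OPC, Gm26870 was still present in ectopic cells. It had 16 UMIs in 22 ectopic cells, or 107 CPM (61.2 to 174), and 0 UMIs in 76 control dOLCs and 13 control vOLCs. This was at least 17.8-fold higher than in control dOLCs and at least 3.11-fold higher than in control vOLCs. Within the ectopic library the level in eOPCs was 12.6 times (7.74 to 22.1) that in COP/NFOL/MFOLa.

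Snhg11 had 4 UMIs in 3 of the 22 ectopic cells, or 26.8 CPM (7.30 to 68.6), against 0 in control dOLCs and 1 in control vOLCs. Its level was at least 4.45-fold higher than in control dOLCs and had a log2 ratio of 1.22 (−2.11 to 6.84) to control vOLCs. Meox1 and Rit2 had 0 UMIs in the 22 ectopic cells, which allows up to 13.6% of cells with a UMI. In the controls Rit2 had 2 UMIs in dOLCs and Meox1 1 in vOLCs, so that no difference was detectable at this depth.

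The 5 ectopic COP/NFOL/MFOLa cells with Gm26870 held 7, 4, 2, 2 and 1 UMIs. All 5 also had UMIs of OPC markers, with a median of 2538 CPM (190 to 5839), and their mature oligodendrocyte markers had a median of 3384 CPM (1327 to 19723). Of the 17 cells without Gm26870, 8 had a UMI of an OPC marker, with a median of 0 CPM and a highest value of 3462, and the median of the mature markers was 29349 CPM (1558 to 44620). Committed precursor markers, among them Gpr17 and Bmp4, had a median of 4931 CPM in the 5 cells and 335 CPM in the 17. The cells with Gm26870 thus lay mostly at the OPC end of the cluster, although the ranges overlapped and the 5 cells were shallower, with a median of 3768 UMIs against 6967. None of the 5 carried Snhg11, and the 3 cells with Snhg11 had no Gm26870.

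**Figure D3:**
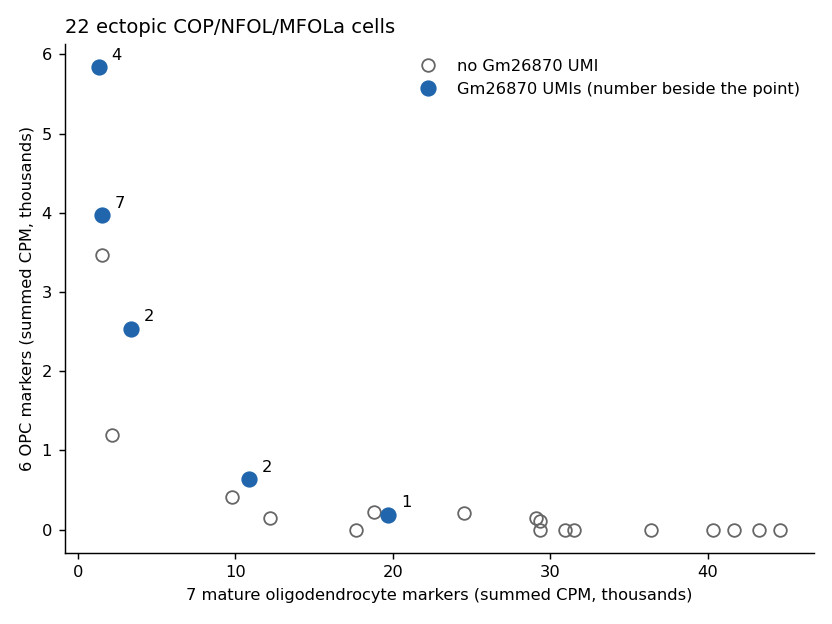
Each point is 1 of the 22 ectopic COP/NFOL/MFOLa cells, placed by the summed level of 7 mature oligodendrocyte markers and of 6 OPC markers (CPM divided by 1000 on both axes). Filled points carry Gm26870, with the number of UMIs beside them: the cells with 7 and 4 UMIs have the highest OPC marker levels and among the lowest mature marker levels.

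Among MFOLb cells, which make myelin, almost nothing was left. The 43 ectopic cells held 2 UMIs of Gm26870 in 1 cell (7.95 CPM, 0.96 to 28.7), 1 of Snhg11, 1 of Meox1 and 0 of Rit2. The 106 control dOLCs held 1 UMI of Snhg11 and 0 of 8 control vOLCs had a UMI of any of the 4 genes, which allows a share of up to 37.5% (3 cells of 8). At this depth no difference between conditions was detectable. The fold of eOPCs over ectopic MFOLb was 170 (47.0 to 1404) for Gm26870 and 38.1 (6.75 to 1512) for Snhg11.

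All MOL clusters together held 4752 control dOLCs, 780 control vOLCs and 2156 ectopic vOLCs. Gm26870 had 6, 2 and 55 UMIs in them, or 0.309, 0.465 and 4.35 CPM, with a log2 ratio of the ectopic cells of 3.81 (2.60 to 5.32) to control dOLCs and 3.23 (1.31 to 6.31) to control vOLCs. It had a UMI in 0.105%, 0.128% and 2.09% of cells, at median depths of 3617.5, 5279.5 and 5649.5 UMIs. The libraries filled different MOL clusters. MOL5/6a and MOL5/6d held 900 and 837 of the ectopic cells but 333 and 569 of the control dOLCs, of which 1947 were in MOL5/6b and 928 in MOL5/6c, and control vOLCs were mostly in MOL5/6a (237), MOL5/6b (236) and MOL2a (179). All 6 control dOLC UMIs of Gm26870 were in MOL5/6b, and both control vOLC UMIs in MOL2a. In the thinned cells, 12, 2 and 1 UMIs of Gm26870 were left in ectopic, control dOLC and control vOLC MOL, and the ratios were 3.73 (1.56 to 6.93) and 2.12 (−0.64 to 7.54), the latter with an interval that took in 0. Within the ectopic library the level in eOPCs was 311 times (237 to 414) that in MOL.

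Snhg11 had 24, 5 and 76 UMIs in MOL, or 1.24, 1.16 and 6.01 CPM. Ectopic MOL had a log2 ratio of 2.28 (1.60 to 3.01) to control dOLCs and 2.37 (1.09 to 4.04) to control vOLCs. In the thinned cells it was 1.56 (0.18 to 2.98) to control dOLCs, from 12 and 9 UMIs, and 2.12 (−0.64 to 7.54) to control vOLCs, from 12 and 1. The share of cells with a UMI was 0.463%, 0.641% and 2.41%, and in the thinned ectopic cells 0.51% for Gm26870 and Snhg11 alike. The level of Snhg11 in eOPCs was 25.2 times (19.2 to 33.4) that in ectopic MOL. This fold and that of Gm26870 rest on the eOPC counts that chose the genes, so that they are not compared.

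Meox1 and Rit2 were close to 0 in MOL of every library. Meox1 had 4, 0 and 9 UMIs, with a log2 ratio of 1.79 (−0.05 to 3.94) of ectopic MOL to control dOLCs. With the 0 of control vOLCs replaced by 3 counts, the ectopic level was 1.02-fold theirs, so that no difference from them was detectable. Rit2 had 15, 1 and 11 UMIs, with log2 ratios of 0.17 (−1.10 to 1.39) and 1.91 (−0.88 to 7.33). Over all MOL clusters, the interval to control dOLCs took in 0 for both genes, but for Meox1 this depends on the scaling. TMM and size factors raise the ratio by 0.19, which takes the lower limit for Meox1 above 0. Within the MOL5/6 clusters pooled, which the libraries filled differently, Meox1 had 9 UMIs in ectopic cells and 3 in control dOLCs. The log2 ratio there was 2.07 (0.07 to 4.60). In MOL5/6d alone it was 0.53 (−2.08 to 3.92), from 5 and 2 UMIs. MOL5/6a had 3 and 0 UMIs and MOL5/6b 1 and 1, and no interval of a single MOL5/6 cluster was clear of 0. None of the 4 genes passed the filter on low counts in MOL, where 0.17% of 5282 genes were at least 2-fold higher in ectopic cells than in control dOLCs and 0.212% of 5649 than in control vOLCs.

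Every gene was higher in OPCs than in MOL in control dOLCs too. The fold of dOPCs over MOL was 13.5 (4.59 to 44.6) for Gm26870, 6.77 (3.62 to 12.6) for Snhg11, 38.8 (13.1 to 155) for Meox1 and 18.2 (9.76 to 35.7) for Rit2. In the ectopic library the fold was 68.9 (34.0 to 158) for Meox1 and 50.7 (26.2 to 108) for Rit2. In control vOLCs it was 10.9 (0.791 to 150) for Gm26870, 6.54 (1.02 to 33.6) for Snhg11, 87.2 (11.7 to 3871) for Rit2 and at least 14.5 for Meox1. The ectopic folds rest on the eOPC counts that chose the genes and are given as a description, with no comparison to the controls drawn from them.

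Among the ectopic MOL clusters, levels of Gm26870 and Snhg11 differed by no more than their intervals. In MOL5/6a and MOL5/6d, which hold most ectopic MOL, Gm26870 was at 4.89 CPM (2.99 to 7.56) and 4.48 (2.95 to 6.52), and Snhg11 at 7.58 (5.15 to 10.8) and 4.65 (3.09 to 6.72). Gm26870 had 0 UMIs in the 93 MOL1 cells, 3 in MOL2a, 2 each in MOL2b and MOL5/6b and 1 in MOL5/6c. Snhg11 ranged from 0 UMIs in the 63 cells of MOL5/6c to 11.6 CPM (5.02 to 22.9) in MOL2a. Intervals of neighbouring clusters in this order overlapped for both genes. The ectopic order from the highest level down was OPC, cycling OPC, COP/NFOL/MFOLa and then the MFOLb and MOL clusters for Gm26870, and the first 3 steps did not overlap. For Snhg11 the interval of cycling OPCs (5.14 to 153 CPM) overlapped those of both OPCs and COP/NFOL/MFOLa.

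Both genes were also set against the OPC markers of the same cells, as UMIs per 100 UMIs of the 6 markers. MOL hold some RNA of these markers, at 134, 68.5 and 62.2 CPM in the 3 libraries, with Ptprz1 and C1ql1 past the filter there, and the part of free RNA in the values was not tested. For Gm26870 this was 14.3 (13.5 to 15.02) in eOPCs, 19.3 (10.5 to 33.2) in ectopic COP/NFOL/MFOLa and 6.99 (5.22 to 9.19) in ectopic MOL. For Snhg11 it was 1.60 (1.37 to 1.85) in eOPCs, 4.82 (1.28 to 12.8) in COP/NFOL/MFOLa and 9.66 (7.53 to 12.2) in MOL. The eOPC values are among those that chose the genes. In OPCs of control dOLCs and control vOLCs, Gm26870 was at 0.0456 and 0.0446 and Snhg11 at 0.0913 and 0.0668.

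In the MOL of control dOLCs and control vOLCs, Gm26870 was at 0.230 and 0.678 per 100 UMIs of OPC markers and Snhg11 at 0.921 and 1.69. Gm26870 had 8.92 UMIs per UMI of Snhg11 in eOPCs (7.65 to 10.5) and 0.724 in ectopic MOL (0.502 to 1.04), with 0.645 in MOL5/6a and 0.964 in MOL5/6d. Of the 2156 ectopic MOL cells, 45 carried Gm26870 and 52 carried Snhg11, and 0 carried both, where the product of shares gives 1.09. Pdgfra had a UMI in 4.44% of MOL cells with Gm26870 and 3.03% of those without, and in 1.92% with Snhg11 and 3.09% without. The ectopic MOL cell with the most UMIs of Snhg11 had 6, and of Gm26870 3.

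**Figure D4:**
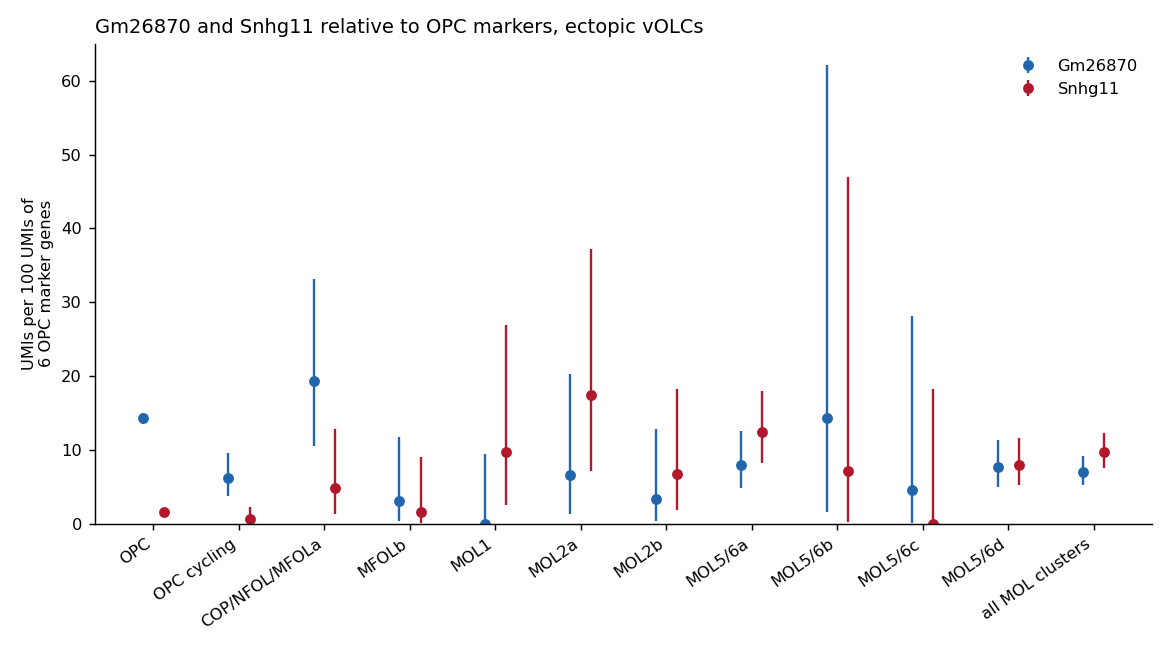
UMIs of Gm26870 (blue) and Snhg11 (red) per 100 UMIs of the 6 OPC markers in each cluster of the ectopic library and in all MOL clusters together, with exact 95% intervals that cover counting error only. Gm26870 stands at 14.3 in OPCs and 6.99 in MOL, and Snhg11 at 1.60 in OPCs and 9.66 in MOL. The control libraries are not plotted.

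The barcodes that the authors' quality filter had removed, 388, 114 and 288 in the 3 libraries, were looked at apart. In all, 612 had 3000 genes or more, and median depths were 10333.5, 9289.5 and 11305 UMIs. Gm26870 had a UMI in 0.515% of the removed control dOLC barcodes, in 0 of 114 control vOLC barcodes (which allows up to 2.63%) and in 27.1% (22.0 to 32.6) of the ectopic ones, with up to 31 UMIs. Snhg11 was found in 1.29%, 2.63% and 19.1% (14.7 to 24.1), Meox1 in 2.06%, 2.63% and 6.60%, and Rit2 in 2.32%, 2.63% and 7.99%.

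Removed barcodes were also split by Pdgfra. Of 84 removed ectopic barcodes with a UMI of Pdgfra, 64 (76.2%) had Gm26870, 35 (41.7%) Snhg11, 19 (22.6%) Meox1 and 22 (26.2%) Rit2. Of the 204 without Pdgfra, 14 (6.86%) had Gm26870, 20 (9.80%) Snhg11, 0 Meox1 and 1 (0.490%) Rit2. In control dOLCs, Meox1 and Rit2 were likewise found in 6.06% and 7.07% of the 99 removed barcodes with Pdgfra and in 0.692% of the 289 without. How many cells these barcodes hold was not tested.

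A single removed barcode of control dOLCs held 60 UMIs of Snhg11, or 5521 CPM. It also had 36 UMIs from 7 of the 9 neuronal markers and 0 of the OPC markers, where the other removed barcodes of that library had a median of 0 neuronal UMIs. Without it, 4 of 387 barcodes (1.03%) carried Snhg11. No kept cell reached this level, the highest being 6 UMIs.

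**Figure D5:**
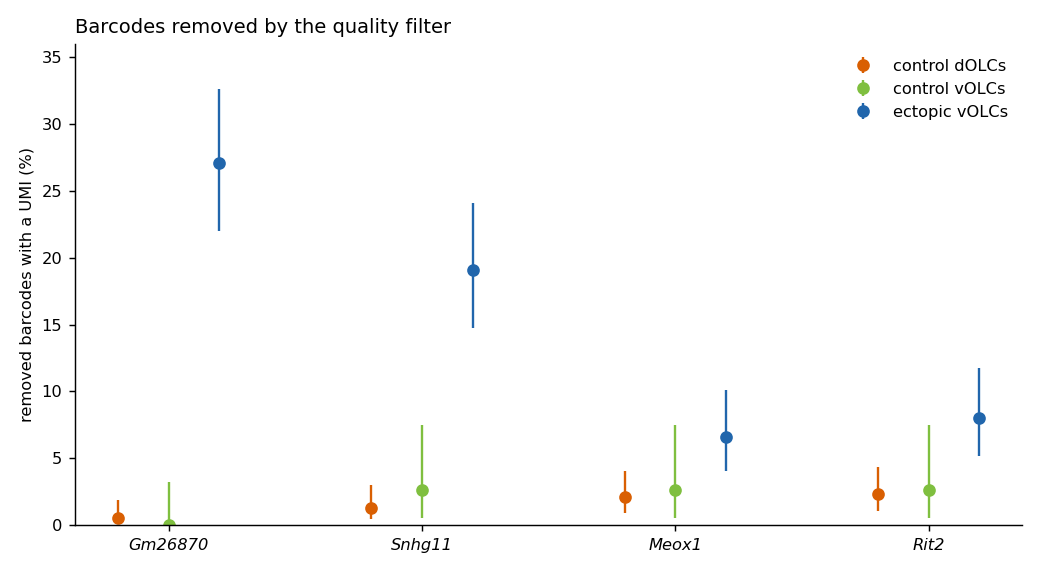
Share (%) of the barcodes removed by the quality filter with a UMI of each gene, by library, with bars for Clopper-Pearson 95% intervals. The ectopic library stands at 27.1% for Gm26870 and 19.1% for Snhg11, above both controls, and at 6.60% for Meox1 and 7.99% for Rit2, where the intervals overlap those of control vOLCs. For Meox1 the lower limit also lies about at the upper limit of control dOLCs.

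Few annotated neighbours had enough UMIs for a ratio of eOPCs to dOPCs. On the far side of Gm26870, 4930433N12Rik had 0 UMIs, and of 13 annotated genes within 1 Mb, 2 passed the filter against dOPCs, with a median log2 ratio of 0.00. With 0.556% of all genes at least 2-fold higher, 2 genes are too few for a count of calls among them to be read. Ralgapb, which follows Snhg11, had a log2 ratio of −0.22 (−0.85 to 0.38) of eOPCs to dOPCs, and Gm23925 on the other side had 0 UMIs. Etv4, an ETS transcription factor next to Meox1, was at 93.7 CPM in dOPCs, 142 in vOPCs and 138 in eOPCs, with a log2 ratio of eOPCs to dOPCs of 0.56 (0.27 to 0.85) and a level in eOPCs that was not above that in vOPCs. The antisense gene Gm11551, which overlaps Meox1, had 2 UMIs in dOPCs and 0 in the others. Pik3c3 and Syt4, the genes on either side of Rit2, had log2 ratios of −0.37 (−1.14 to 0.35) and 0.04 (−0.92 to 0.94).

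Related genes were taken from lists of the same classes. Of 18 snoRNA host genes listed beside Snhg11, 6 were in the table and 4 passed the filter, with a median log2 ratio of eOPCs of 0.20 to dOPCs and 0.29 to vOPCs. Snhg9 was the only one of the 4 at least 2-fold higher than dOPCs, at 1.18, and none was so against vOPCs. Snhg9 was also at least 2-fold higher in vOPCs than in dOPCs. Of 7 neuronal long noncoding RNAs, 4 were in the table and 3 passed the filter, with medians of 0.12 and −0.09 and none at 2-fold, and the abundant Meg3 was at 0.12 against dOPCs. Of 29 genes of the Ras family, to which Rit2 belongs, 14 passed against dOPCs with a median of 0.17 and none at 2-fold. Against vOPCs 13 passed with a median of 0.20, and Rala and Rheb, an activator of mTORC1, were at least 2-fold higher, at 1.22 and 1.20, against 1.12 for Rit2. To dOPCs, Rala and Rheb were at 0.04 and 0.85. Rala was also at least 2-fold lower in vOPCs than in dOPCs. Over all genes past the filter, 0.556% were at least 2-fold higher than dOPCs and 5.3% than vOPCs.

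Of 14 mesodermal patterning factors listed beside Meox1, 12 had 0 UMIs in eOPCs, 11 in dOPCs and 11 in vOPCs. Prrx1 was the only one to pass the filter, with log2 ratios of 0.15 and 0.05, and Meox2, the paralog of Meox1, had 6, 2 and 1 UMIs in dOPCs, vOPCs and eOPCs. Over all genes past the filter the medians were 0.08 and 0.04.

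The genes with the most similar pattern were sought by Pearson's r of log2(CPM + 10) over 27 groups of cells (library by cluster, at least 20 cells), among 11772 genes. The groups share libraries and depth and include the eOPCs, whose values chose the 4 genes, so that r among them is in part fixed by the choice and is a description only. Gm26870 and Snhg11 were each the nearest to the other, with r = 0.95. Next for Gm26870 came Nap1l1, a histone chaperone (0.83), and Cys1 (0.82), and the same genes came next for Snhg11. In OPCs Nap1l1 was at 136 CPM in dOPCs, 139 in vOPCs and 363 in eOPCs.

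Meox1 and Rit2 were nearest to other genes. The nearest to Meox1 were Wnt10a, a Wnt ligand (0.95), Rxrg, a retinoid receptor (0.91), and Chrm1, a muscarinic receptor (0.91). The nearest to Rit2 were Rgs19, a regulator of G protein signalling, Lor and Chrm1 (all 0.98). Meox1 and Rit2 had r = 0.90 with each other, against 0.81 for Meox1 with Gm26870 and with Snhg11, 0.71 for Rit2 with Snhg11 and 0.67 for Rit2 with Gm26870. The list of nearest genes depended on the pseudocount, with 3 of the 12 entries again among the nearest with log2(CPM + 1) and 7 with log2(CPM + 50).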

How the data were processed

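Raw UMI counts per gene and barcode were deposited as a table by the authors for the 3 P90 libraries, next to cell annotations before and after quality control. Of the annotation columns 8 were not used, and the 4 P0 samples were not analysed here. The labels name mm10, Cell Ranger 2.1.1 and Seurat 3 and 4.0, and the study's methods another Cell Ranger version. The stated filter (over 200 and under 3000 genes, at most 15% of counts from 13 mitochondrial genes) gave the 9291 kept cells of 10081 barcodes. Kept cells held 1257 to 12180 UMIs. Doublets were not removed. The genes, lists and comparisons were chosen with earlier results of these data known. Counts of all cells of a cluster in a library were added up and scaled to 1000000 UMIs (CPM). With 1 library per condition no test was made, and intervals are at 95%. A level of 0 was replaced by 3 counts in limits and in ratios, and such ratios leave out the counting error of the other side. Thinning drew 1000 UMIs per cell, and 0 cells were shallower. Genes named beside the 4 were the 3 nearest in pattern, the annotated neighbours and at most 4 genes of a list with the most UMIs in OPCs. Beyond this rule, all 6 OPC markers, the committed precursor marker Bmp4 and the neuronal markers at 0 UMIs were named. Snhg9, Rala, Rheb, Meox2, Tubb3, Rpa3, Polr2f and the genes that share repeats were named after their values were seen. Of the table's 27998 symbols, 26646 matched GENCODE vM21 on GRCm38. Steps were tested on simulated counts. Alternatives were TMM factors, size factors, means over cells, thinning, a 10% mitochondrial limit, leaving out the 6% of barcodes with the highest Scrublet scores, and cycling OPCs joined. Tools were Python 3.11.15, numpy 2.4.6, scipy 1.17.1, pandas 2.3.3, scanpy 1.11.5, matplotlib 3.10.9, R 4.3.3 and edgeR 4.0.16.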

Additional observations from a re-analysis of the deposited data

Results flagged for a closer look

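Barcodes that the authors had removed were outside the comparisons, and in the ectopic library 27.1% of them had a UMI of Gm26870 and 19.1% of Snhg11, above the shares of 0.515% and 1.29% in removed control dOLC barcodes and of 0 of 114 and 2.63% in those of control vOLCs. The median depths were 11305 UMIs in the ectopic library, 10333.5 in control dOLCs and 9289.5 in control vOLCs.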

How the results depend on the processing

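No paired analysis was possible because there was a single library per condition. Of 88 log2 ratios under an alternative, 84 stayed within the counting interval of the value reported, as did 19 of 27 other values (shares and counts), and none changed direction. All that moved among the ratios did so with cells thinned to 1000 UMIs. The ratio of eOPCs to vOPCs was then 5.78 for Gm26870 and 2.52 for Snhg11, with the 0 UMIs in vOPCs replaced by 3 counts. The ratio of Meox1 to dOPCs was 4.18, and that of Snhg11 in MOL to control dOLCs was 1.56. Thinning also set the share of eOPCs with a UMI to 60.3% for Gm26870, 13.0% for Snhg11, 3.94% for Meox1 and 3.33% for Rit2, and left 40 eOPCs with at least 2 genes in place of 152. By its construction thinning leaves fewer UMIs. With no filter beyond 1 UMI, 0.728% of 14015 genes were at least 2-fold higher than both controls. Of the 12 entries named as most alike in pattern, 3 were found again with log2(CPM + 1) and 7 with log2(CPM + 50), for which the cause was not tested. The Rit2 ratio to vOPCs ran from 0.43 to 1.19 over its alternatives, and its interval took in 0 without the barcodes that libraries share (−0.01 to 2.36). TMM and size factors raised all ratios in MOL by 0.17 to 0.19, which takes the interval of Meox1 to control dOLCs past 0. Leaving out shared barcodes, the MOL alternatives and leaving out 1 removed barcode were alternatives chosen after seeing the data. With 2 to 8 UMIs of each gene in vOPCs, ratios to that library are the least precise.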
